A study of Mus musculus with 8 samples.

Results

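Microglia of icKO mice with experimental autoimmune encephalomyelitis (EAE) that were treated with iguratimod were compared with microglia of untreated icKO mice with EAE. The comparison uses 2 of the 8 arrays of the series, 1 a side, and was chosen by the sample labels. It covers the 16361 of 30771 named genes whose level lay above the array median of named probe sets on at least 1 of the 2 arrays. The measure is log2(intensity + 16), and a difference is iguratimod minus untreated EAE on that scale. With 1 array in each group no value has a replicate or an error, the number of arrays limits the precision, and the differences within a genotype are described and not tested.

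The series holds 8 whole-transcript Affymetrix arrays of RNA from microglia of C57Black/6J mice, 1 for each combination of 2 genotypes and 4 states. The states are naive, EAE, EAE with iguratimod, and EAE with the label p50, whose meaning the labels do not give. The control genotype is labelled FL, or F/F on the p50 array, and is taken here to carry floxed alleles without the deletion. The icKO genotype is, per the series title, a conditional knockout directed at oligodendroglia. The driver of the deletion, the animals' age and sex, the number of animals behind an array, the day of EAE and the dose and timing of iguratimod are not in the labels.

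Microglia are tissue macrophages that live in the brain and spinal cord. In EAE, an immunisation model of multiple sclerosis, they take up antigen-presenting and phagocytic programmes while monocytes, neutrophils and T cells enter the tissue from blood. Iguratimod is a small-molecule antirheumatic drug known to restrain NF-kB activation, the release of inflammatory cytokines and prostaglandin production, and to bind the cytokine MIF.

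The 2 arrays were alike in brightness, with median intensities of 247 on the untreated EAE array and 249 on the iguratimod array, inside the 243 to 269 of all 8 arrays. Genes that define microglia were among the bright ones. P2ry12, the purinergic receptor that marks resident microglia, lay at 12.67 on the EAE array and 12.79 with iguratimod, and the fractalkine receptor gene Cx3cr1 lay at 18.15 and 18.27. Of the markers of other brain cells, 0 of 10 neuronal, 2 of 12 oligodendroglial, 2 of 10 astrocytic and 1 of 10 endothelial genes on the array passed the filter. Of 10 border macrophage markers 7 passed, at a median level of 8.63 on the EAE array and 8.44 with iguratimod. Of these 7, 6 were lower and 1 higher, with a median difference of -0.22 in icKO and -0.19 in control. Markers of blood leukocytes also passed the filter, and they are given apart from the microglial genes. In RNA from a bulk sample, fewer cells of a type and less RNA per cell cannot be told apart.

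More genes were lower than higher with iguratimod in icKO EAE: of the 16361, 7507 were higher (45.9%) and 8816 lower. At least 2-fold higher were 118 genes (0.721% of those considered), and at least 2-fold lower were 272 (1.66%). Many of these are small RNAs, pseudogenes, predicted genes, chemosensory receptors and antigen receptor segments, which are counted and not named: small RNAs alone gave 50 of the higher and 95 of the lower genes, and pseudogenes 17 and 80. Among the 8716 protein-coding genes of the remaining kinds, 9 were at least 2-fold higher (0.103%) and 59 lower (0.677%), and their median difference was 0.00. The middle 90% of all differences ran from -0.70 to 0.49. The excess of lower genes lay among bright ones: in the brightest of 3 equal groups of genes the median was -0.12, with 162 genes at least 2-fold lower and 50 higher, while the medians of the others were both 0.00. In the control genotype the same treatment had 172 genes at least 2-fold higher (1.05% of 16401) and 305 lower (1.86%). Bright protein-coding genes as a whole lay lower there. The 2926 above the 60th percentile had a median of -0.31 in control, with 2517 lower. In icKO their median was -0.02, with 1560 lower. Counts of lower list members in icKO are to be read against the 8816 of 16361, or the 1560 of 2926 where bright. Every control median given for a list below is to be read against that -0.31.

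**Figure D1:**
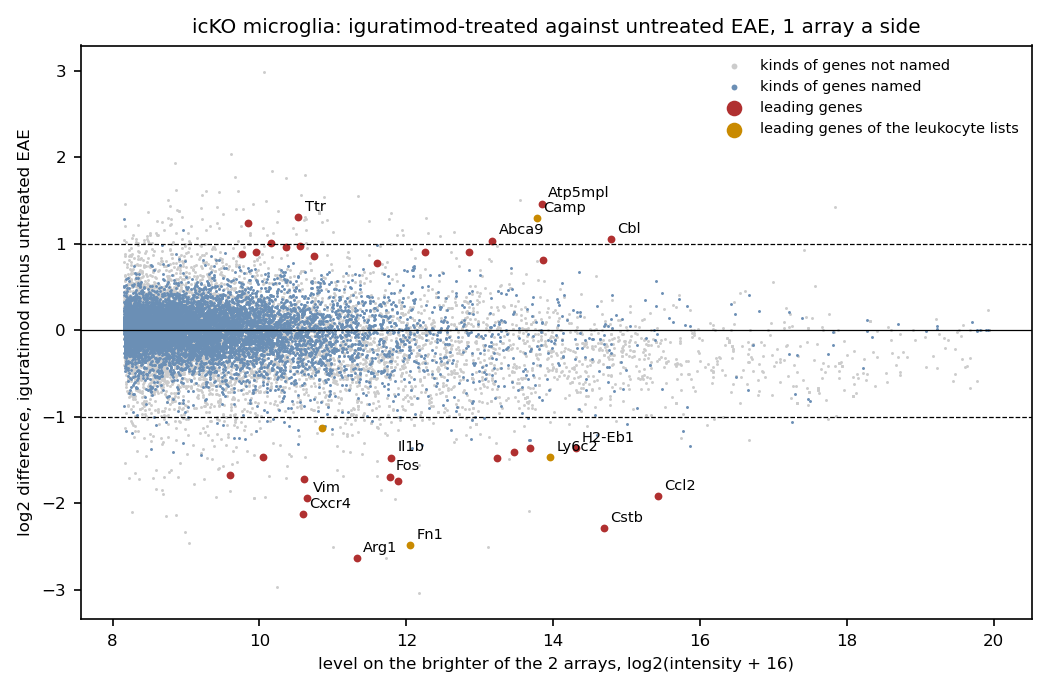
Each point is a gene considered, with its level on the brighter of the 2 icKO EAE arrays, log2(intensity + 16), on the x axis and its log2 difference, iguratimod minus untreated EAE, on the y axis. Dashed lines mark 2-fold, red points are the 30 leading genes and orange points the leading genes of the leukocyte lists. The red lower genes run from Arg1 at -2.63 to Cst7 at -1.36, and the orange ones from Fn1 at -2.48 to Chil3 at -1.13.

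The gene with the largest difference among those named was Arg1, which encodes arginase 1, an enzyme that consumes arginine in macrophages. Its level was 7.94 on the icKO naive array, 11.32 in icKO EAE and 8.69 with iguratimod, a difference of -2.63 or 6.19-fold. In the control genotype Arg1 was dim on every array, at 8.03 when naive, 8.50 in EAE and 8.15 with iguratimod, so the untreated icKO EAE array was the one that stood high. Cstb, which encodes the cathepsin inhibitor cystatin B, lay at 14.69 in icKO EAE and 12.41 with iguratimod, 4.87-fold lower, against 11.05 when naive. Cst7, which encodes the related inhibitor cystatin F, lay at 13.69 and 12.33, against 8.88 when naive. Both cystatin genes were also lower with iguratimod in control mice, by differences of -2.13 for Cstb and -2.65 for Cst7.

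Genes of migration and of the cell's surface and skeleton stood beside them, and which cells in the sample gave their RNA was not tested. Cxcr4, the receptor of the chemokine CXCL12, lay at 10.59 in icKO EAE and 8.47 with iguratimod, a difference of -2.12, and the control difference was also -2.12. Vim, which encodes the intermediate filament protein vimentin, lay at 10.64 and 8.70, a difference of -1.94 against -1.01 in control. Tgfbi, an extracellular matrix protein gene induced by TGF-beta, was -1.74 in icKO and -1.70 in control. Anpep, a surface aminopeptidase, had differences of -1.67 and -0.44. Fgl2, a fibrinogen-like protein of activated macrophages, had -1.46 and -0.80, and Id2, an inhibitor of helix-loop-helix transcription factors, had -1.41 and -0.47. The epithelial and myeloid cytokine gene Il1f9, which encodes interleukin 36 gamma, lay at 10.61 and 8.90, a difference of -1.71 against -2.87 in control.

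Of the 15 leading lower genes, 14 were still above their icKO naive level on the iguratimod array. Fos was the exception. All 15 were higher on the icKO EAE array than on the icKO naive array, but the 2 differences share the EAE array, so a high value there moves both. In the control genotype 13 of the 15 were lower with iguratimod as well, 9 of them at least 2-fold, and Ccl2 and Fos were not.

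**Figure D2:**
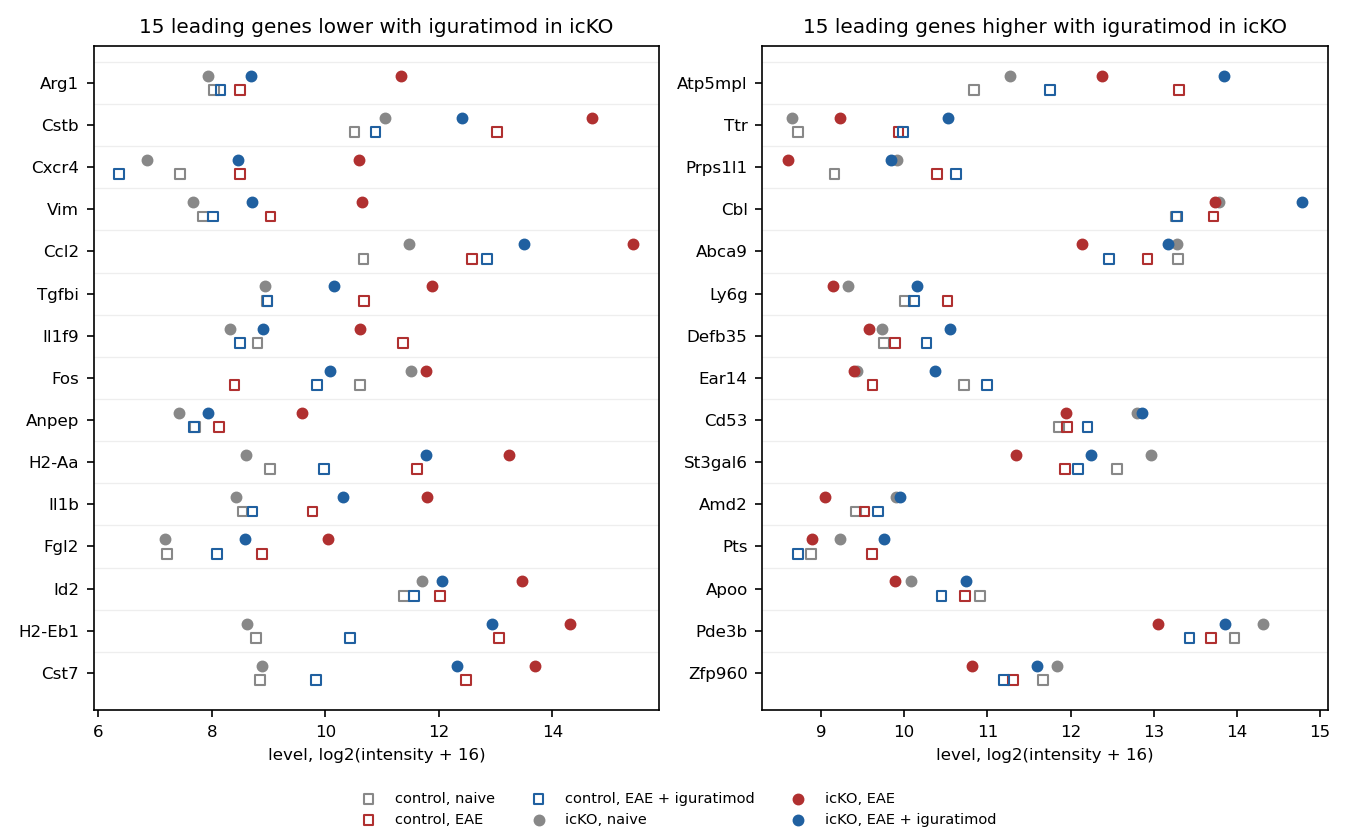
Levels, log2(intensity + 16), of the 15 leading lower and 15 leading higher genes outside the leukocyte lists (Ly6g, a neutrophil marker in none of them, included) on 6 arrays, 1 point an array. Filled circles are icKO and open squares control, grey naive, red EAE and blue EAE with iguratimod. For Arg1 the icKO EAE circle at 11.32 stands alone, and for Ccl2 the icKO EAE circle at 15.42 stands above all other points.

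The leading higher genes differed by less. Of the named-kind genes at least 2-fold different, 1 of the 9 higher and 32 of the 59 lower were in a gene list. The lists held 495 of the genes considered and were chosen with earlier results of these data known. These 2 counts thus partly reflect that choice and carry no conclusion. Atp5mpl, which encodes a small subunit of the mitochondrial ATP synthase, lay at 12.38 in icKO EAE and 13.84 with iguratimod, a difference of 1.46, and in control it lay at 13.31 and 11.76. Ttr, the gene of the thyroid hormone carrier transthyretin made by the choroid plexus, lay at 9.22 and 10.53, a difference of 1.31, with 0.06 in control. Cbl, a ubiquitin ligase that ends receptor signalling, lay at 13.73 and 14.78. It is the one named gene with 2 probe sets, and its difference of 1.05 became 0.43 when they were averaged. Abca9, a transporter-family gene, lay at 12.13 and 13.17, against 13.28 when naive. St3gal6, a sialyltransferase, lay at 11.34 and 12.25 against 12.96 when naive. Cd53, a tetraspanin of leukocytes, lay at 11.95 and 12.86 against 12.79 when naive, and Pde3b, a cyclic nucleotide phosphodiesterase, at 13.05 and 13.86 against 14.31. For these 4 genes the iguratimod array was nearer the naive one. The remaining 8 ran from 0.78 for Zfp960 to 1.24 for Prps1l1. Of the 15 leading higher genes, 13 lay below their icKO naive level on the icKO EAE array, which their choice as the highest differences also used, and 7 were also higher with iguratimod in control. Several of them, among them Amd2, Ear14, Defb35, Prps1l1 and Zfp960, belong to families of near-identical genes whose probe sets can share signal.

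**Figure D3:**
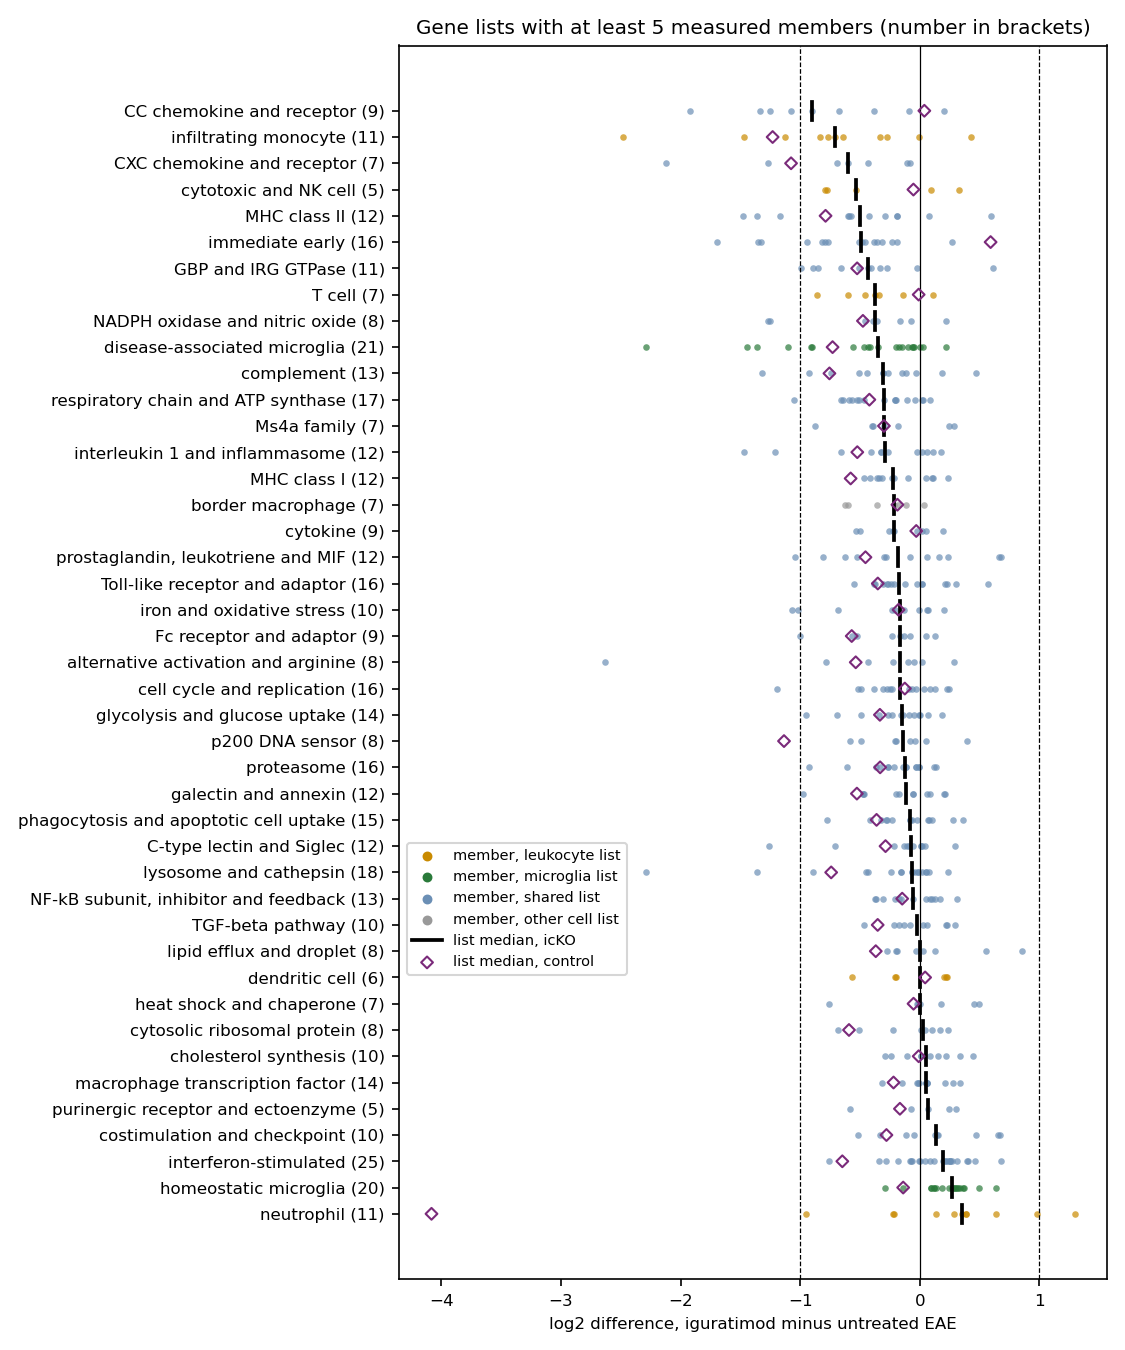
Each row is a gene list with at least 5 members considered (number in brackets), ordered by its icKO median. Points are the members' log2 differences, iguratimod minus untreated EAE, in icKO, coloured by the class of the list, black bars are icKO medians and open diamonds control medians. CC chemokines lie lowest at -0.90 and neutrophil markers highest at 0.35, where the control diamond lies at -4.08.

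Homeostatic microglial genes were mostly a little higher with iguratimod. Of 20 considered, 18 were higher and 2 lower, with a median of 0.27 beside -0.02 over all genes, and 0 reached 2-fold. The highest was Gpr34, a lysophosphatidylserine receptor of resting microglia, which lay at 13.89 when naive, 11.80 in EAE and 12.44 with iguratimod. Gpr165 followed at 0.49, Upk1b at 0.37 and the efferocytosis receptor Mertk at 0.36. The lowest was the microglial membrane protein gene Tmem119, at 10.71 and 10.42. On the iguratimod array 2 of the 20 lay above their icKO naive level. In control the median of the same genes was -0.14, beside -0.31 for bright protein-coding genes, so in both genotypes it lay above that of bright genes.

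Genes of the disease-associated microglial state, a phagocytic and lipid-handling programme, were mostly lower. Of 21 considered, 19 were lower and 2 higher, with a median of -0.35 in icKO, or -0.18 under quantile normalization, and -0.73 in control. At least 2-fold lower in icKO were 4 of the 21: Cstb, Cst7, Fabp5 and Gpnmb. Over the 8716 protein-coding genes the share was 0.677%, and of the 2926 bright ones 48 were. Fabp5, a fatty acid binding protein, lay at 9.20 in EAE and 7.76 with iguratimod, against 7.01 when naive. Gpnmb, a lysosomal glycoprotein, lay at 10.40 and 9.30, against 8.79. In control these last differences were -0.18 and -0.29. Core members of the state differed more in control than in icKO: Clec7a, the beta-glucan receptor, was 15.14 and 14.24 in icKO but 13.27 and 9.38 in control, and the lipid carrier gene Apoe was 13.07 and 12.51 in icKO but 12.30 and 10.06 in control. Itgax and Axl had icKO differences of -0.47 and -0.42 and control differences of -1.26 and -1.88. Trem2, the receptor that drives this state, had 0.03 in icKO, and its adaptor Tyrobp 0.22. In control 9 of the 21 were at least 2-fold lower, beside 143 of the 8716 protein-coding genes and 126 of the 2926 bright ones.

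Transcripts of the peptide-binding chains of MHC class II were lower, and antigen presentation itself was not measured. H2-Aa, the alpha chain of the I-A molecule, lay at 8.60 when naive, 13.24 in icKO EAE and 11.77 with iguratimod. H2-Ab1, its beta chain, lay at 9.88, 15.76 and 14.60. H2-Eb1, the beta chain of I-E, lay at 8.62, 14.30 and 12.94. These 3 were the class II genes at least 2-fold lower in icKO. Over the 8716 protein-coding genes the share was 0.677%, and of the 2926 bright ones 48 were. The differences of H2-Aa, H2-Ab1 and H2-Eb1 were -1.48, -1.17 and -1.36, and on the iguratimod array all 3 lay well above the naive array. In control their differences were -1.65, -2.15 and -2.63. Of the 12 genes of the list, 10 were lower, with a median of -0.50, among them the peptide exchange genes H2-DMa at -0.58 and H2-DMb1 at -0.59. Ciita, the class II transactivator, was dim, at 8.32 and 8.13. Of the MHC class I genes 8 of 12 were lower with a median of -0.22, and H2-K1 and H2-D1, its classical chains, had differences of 0.10 and -0.10.

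The promoters of the leading class II genes and of Fos, the leading lower transcription factor gene, are shown because class II promoters share a conserved module with a Y box, bound by NF-Y, and because Fos is a textbook cAMP-responsive gene. Each is the 250 bases before the RefSeq start, 5′ to 3′ on the gene's strand, in build GRCm38.p6. H2-Aa is at chr17:34287824-34288073 on the minus strand, H2-Eb1 at chr17:34305617-34305866 on the plus strand and Fos at chr12:85473640-85473889 on the plus strand. Capitals mark matches, on either strand, to TGATTGG (Y box), TGACGT (core of the cAMP response element) and TATAAA, the letters of the TATA box.
H2-Aa: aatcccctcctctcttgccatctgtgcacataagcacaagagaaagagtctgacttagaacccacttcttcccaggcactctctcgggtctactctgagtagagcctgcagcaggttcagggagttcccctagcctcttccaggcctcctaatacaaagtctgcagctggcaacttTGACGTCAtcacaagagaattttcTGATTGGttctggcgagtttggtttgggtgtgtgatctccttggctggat
H2-Eb1: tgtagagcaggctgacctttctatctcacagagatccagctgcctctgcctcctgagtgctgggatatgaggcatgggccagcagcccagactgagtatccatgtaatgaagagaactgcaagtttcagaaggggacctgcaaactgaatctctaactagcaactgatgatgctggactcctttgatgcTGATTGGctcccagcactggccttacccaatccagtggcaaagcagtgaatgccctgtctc
Fos: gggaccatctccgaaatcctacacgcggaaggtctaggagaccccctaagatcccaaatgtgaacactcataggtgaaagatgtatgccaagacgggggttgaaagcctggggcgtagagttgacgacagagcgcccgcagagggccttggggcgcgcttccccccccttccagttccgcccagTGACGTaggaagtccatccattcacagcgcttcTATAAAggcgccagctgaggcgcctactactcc
The Y box began 50 bases before the start in H2-Aa and 61 in H2-Eb1. The cAMP response core began 74 bases before the start in H2-Aa, where it is read on both strands, and 66 in Fos, which also had a TATA box at 33. Of 32851 promoter windows of this length, 7.23% held the Y box, 6.47% the cAMP response core and 12.4% the TATA box. A match describes letters only, and no binding was measured here.

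Chemokines, the secreted attractants of leukocytes, were lower as a group in icKO. Of 9 CC chemokine and receptor genes considered, 8 were lower, with a median of -0.90, against 0.04 in control. Without the filter the icKO median was -0.68. Ccl2, the main attractant of monocytes, lay at 11.47 when naive, 15.42 in icKO EAE and 13.51 with iguratimod, a difference of -1.92. In control it lay at 12.59 and 12.85. The related Ccl7 lay at 9.73 and 8.48 in icKO, and Ccl8 at 9.42 and 8.34. Ccl3, an attractant of myeloid cells and T cells, lay at 15.86 and 14.53 in icKO but at 12.31 and 13.78 in control, and Ccl4 had differences of -0.90 and 0.35. For Ccl2 and Ccl3 the icKO iguratimod array thus lay nearer to both control EAE arrays than the untreated icKO one did. Ccr1, a receptor, was the member higher in icKO, at 0.20.

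Of the 14 CXC genes on the array 7 passed the filter, and these were lower, with a median of -0.60 in icKO and -1.08 in control. A gene could pass through the EAE array alone, and over all 14 the icKO median was -0.11. Besides Cxcr4, Cxcl9, an interferon-gamma-induced attractant of T cells, was at least 2-fold lower, at 13.68 and 12.41 against 7.26 when naive, and at 12.37 and 9.74 in control. Cxcl13, the attractant of B cells, lay at 14.63 and 14.53 in icKO, a difference of -0.11, but at 11.98 and 9.72 in control.

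Immediate early genes, the transcripts that cells switch on within minutes of a stimulus, were lower in icKO and higher in control. Of 16 considered, 15 were lower in icKO with a median of -0.49, or -0.38 without the filter. The control median was 0.59. There 5 of the 16 were at least 2-fold higher, beside 17 of the 8716 protein-coding genes and 12 of the 2926 bright ones. Fos, a subunit of the AP-1 factor, lay at 11.51 when naive, 11.77 in icKO EAE and 10.08 with iguratimod. In control it lay at 10.61 when naive, 8.40 in EAE and 9.85 with iguratimod. The related gene Fosb lay at 12.08 and 10.73 in icKO and at 8.66 and 10.38 in control. Rgs1, a brake on chemokine receptor signalling, lay at 12.21 and 10.88 in icKO and at 9.04 and 10.95 in control. When naive, Fosb lay at 12.95 in icKO and 11.31 in control, and Rgs1 at 12.74 and 11.12. On the naive arrays and more so on the untreated EAE arrays icKO was thus higher than control for Fos, Fosb and Rgs1, and on the iguratimod arrays the genotypes lay close together. The phosphatase gene Dusp1 had differences of -0.79 and 1.85, Jun of -0.35 and 1.38, and the mRNA-decay factor gene Zfp36 of -0.81 and 0.78.

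**Figure D4:**
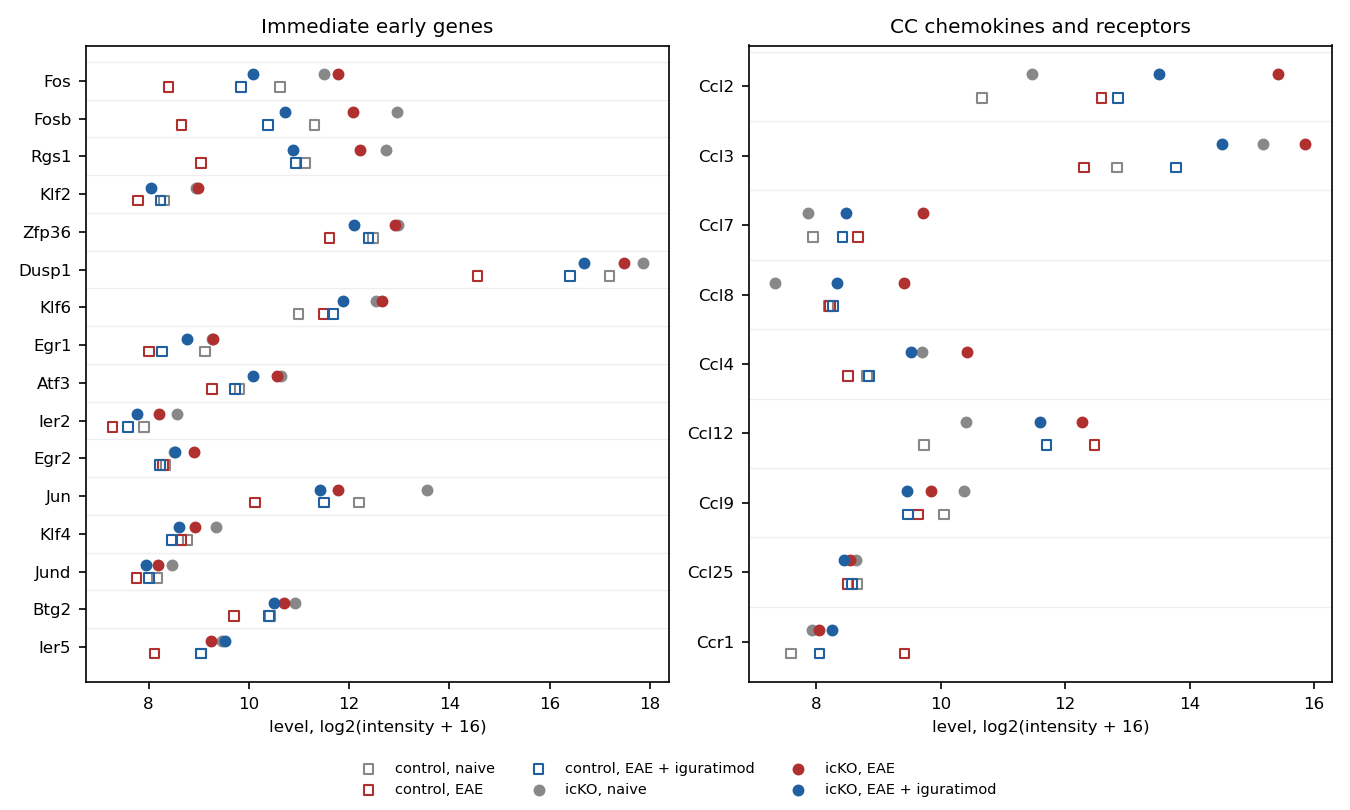
Levels, log2(intensity + 16), of the immediate early genes and of the CC chemokine and receptor genes considered, ordered by their icKO difference, on 6 arrays. Filled circles are icKO and open squares control, grey naive, red EAE and blue EAE with iguratimod. For Fos, Fosb and Rgs1 the red square lies lowest, and the blue circle and blue square lie close together.

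Of the interleukin 1 and inflammasome genes, 8 of the 12 that passed the filter were lower with a median of -0.29, which was -0.05 without the filter and -0.18 under quantile normalization, and both agonist genes were at least 2-fold lower. Il1b lay at 8.42 when naive, 11.79 in icKO EAE and 10.32 with iguratimod, and in control at 9.77 and 8.71. Il1a lay at 14.59 and 13.38 in icKO and at 12.99 and 13.32 in control. The sensor Nlrp3 had an icKO difference of 0.17 and the protease Casp1 of -0.33. Tnf, the tumour necrosis factor gene, lay at 10.02 and 9.52 in icKO, and Il6 was dim, at 8.29 and 8.03.

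Transcripts of NF-kB signalling genes and of prostaglandin synthesis genes went both ways. NF-kB activation and prostaglandin production, on which iguratimod is known to act, were not measured. Of 13 genes for NF-kB subunits, inhibitors and feedback, 6 were higher and 7 lower, with a median of -0.06 that turned to 0.04 under quantile normalization, and 0 reached 2-fold. They ran from the feedback inhibitor gene Tnfaip3 at -0.38 to the subunit gene Rel at 0.31. Of 12 genes of prostaglandin and leukotriene synthesis and MIF, 7 were lower and 5 higher, with a median of -0.18, or -0.08 without the filter on low values. In both lists the share of lower genes was near the 8816 of 16361 over all genes. Ptgs2, which encodes cyclooxygenase 2, was dim at 8.57 and 8.04. Mif lay at 10.69 and 9.89 in icKO and at 10.70 and 9.38 in control. Pla2g7, which encodes a secreted phospholipase that degrades platelet-activating factor, was the member at least 2-fold lower, at 10.11 and 9.06. At the other end Hpgds, the prostaglandin D synthase of macrophages, had a difference of 0.68, and Hpgd, which inactivates prostaglandins, of 0.66, and both were nearer their icKO naive levels of 14.92 and 13.50 with iguratimod than without.

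Interferon-stimulated genes, the antiviral programme, were not lower as a group in icKO. Of 25 considered, 17 were higher and 8 lower, with a median of 0.20, and 0 reached 2-fold. In control the median was -0.65, beside -0.31 for bright protein-coding genes. There 7 of the 25 were at least 2-fold lower, beside 143 of the 8716 protein-coding genes and 126 of the 2926 bright ones. The highest in icKO was Bst2, which encodes tetherin, at 9.67 and 10.35, and the lowest was Stat2, a subunit of the interferon-activated factor, at 10.94 and 10.19. All 25 lay above their icKO naive level on the iguratimod array. The p200 family of DNA sensors had a median of -0.14 in icKO, which turned to 0.04 under quantile normalization, and -1.14 in control. Its bright member Ifi207 lay at 13.25 and 13.20 in icKO but at 13.14 and 10.89 in control. The interferon-gamma-induced GBP and IRG GTPases were lower in both, 10 of 11 in icKO, with medians of -0.43 and -0.52. Gbp2, at 11.46 and 10.46, had the lowest difference, just short of 2-fold.

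Effector genes of phagocytes were mostly lower, and a few members were at least 2-fold lower. Of 8 NADPH oxidase and nitric oxide genes 7 were lower, with a median of -0.37. Cybb, the catalytic subunit of the NADPH oxidase, lay at 8.33 when naive, 13.67 in icKO EAE and 12.40 with iguratimod, and at 12.33 and 9.31 in control. Rac2, the GTPase that activates that oxidase in leukocytes, lay at 12.87 and 11.62 in icKO. Of the complement genes 11 of 13 were lower with a median of -0.31, or -0.15 under quantile normalization. Cfb, factor B of the alternative pathway, lay at 10.53 and 9.21, and C3ar1, the C3a receptor, was the highest member at 0.47. The Fc receptor gene Fcgr4 lay at 7.56 when naive, 12.94 and 11.93, and the C-type lectin gene Clec4d at 9.80 and 8.54. The 18 lysosomal and cathepsin genes had a median of -0.06, which turned to 0.04 under quantile normalization, and Cstb and Cst7 were the members at least 2-fold lower. In control the lysosomal median was -0.74, beside -0.31 for bright protein-coding genes.

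Most respiratory chain, glycolysis and cell cycle genes considered were a little lower, and few members were at least 2-fold lower. Of 17 respiratory chain and ATP synthase genes, which do not include the higher Atp5mpl, 14 were lower with a median of -0.30, and the cytochrome oxidase subunit gene Cox5a, at 11.53 and 10.48, was the member at least 2-fold lower. Of 14 genes of glycolysis and glucose uptake 11 were lower with a median of -0.15, of which Slc2a1, a glucose transporter gene, was the lowest at -0.95. Iron-handling genes included Ftl1, ferritin light chain, at 13.66 and 12.64, and Steap4, a metalloreductase, at 8.72 and 7.66. Of 16 cell cycle genes 11 were lower with a median of -0.16, or -0.09 without the filter, and the ribonucleotide reductase gene Rrm2, at 8.26 and 7.07, reached its naive level of 7.02. The proliferation marker Mki67 lay at 7.49 when naive, 11.09 in icKO EAE and 10.61 with iguratimod. The 8 cytosolic ribosomal protein genes had a median of 0.03.

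Leukocyte genes, kept apart, went different ways by cell type. Infiltrating monocyte markers were mostly lower: 10 of 11 were lower and 1 higher, with a median of -0.71, and their summed intensity was 14.92 on the log2 scale in icKO EAE, 13.81 with iguratimod and 11.86 when naive. Fn1, which encodes fibronectin, lay at 12.05 and 9.57, 5.58-fold lower. Ly6c2, the surface marker of inflammatory monocytes, lay at 13.96 and 12.50 in icKO and at 14.27 and 11.28 in control. Chil3, a chitinase-like protein, lay at 10.85 and 9.72, and Ccr2, the receptor of CCL2, at 9.91 and 9.20. In control the monocyte sum was 14.83 in EAE and 12.74 with iguratimod.

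Neutrophil markers were not lower in icKO. Of 11 considered, 8 were higher and 3 lower, with a median of 0.35, and their summed intensity was 13.93 when naive, 16.87 in EAE and 17.18 with iguratimod. S100a8, the calprotectin subunit gene that is most abundant in neutrophils, lay at 15.12 and 15.40, and S100a9, its partner, at 14.90 and 15.25. Ly6g, a neutrophil surface marker that was in none of the lists and so was counted among the leading higher genes, lay at 9.14 and 10.15. Camp, which encodes the antimicrobial peptide cathelicidin, was the member at least 2-fold higher, at 12.48 and 13.78. In control the same markers were far lower with iguratimod, with a summed intensity of 19.86 in EAE and 15.62 with iguratimod. There 10 of the 11 were at least 2-fold lower, S100a8 by a difference of -5.28. Of the 8716 protein-coding genes 143 were, and of the 2926 bright ones 126. The untreated control EAE array had the highest neutrophil sum, and the untreated and iguratimod-treated icKO EAE arrays lay between it and the naive arrays. On the p50 EAE arrays the sum was 14.7 in control and 14.9 in icKO, near the 15.1 of the control naive array.

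**Figure D5:**
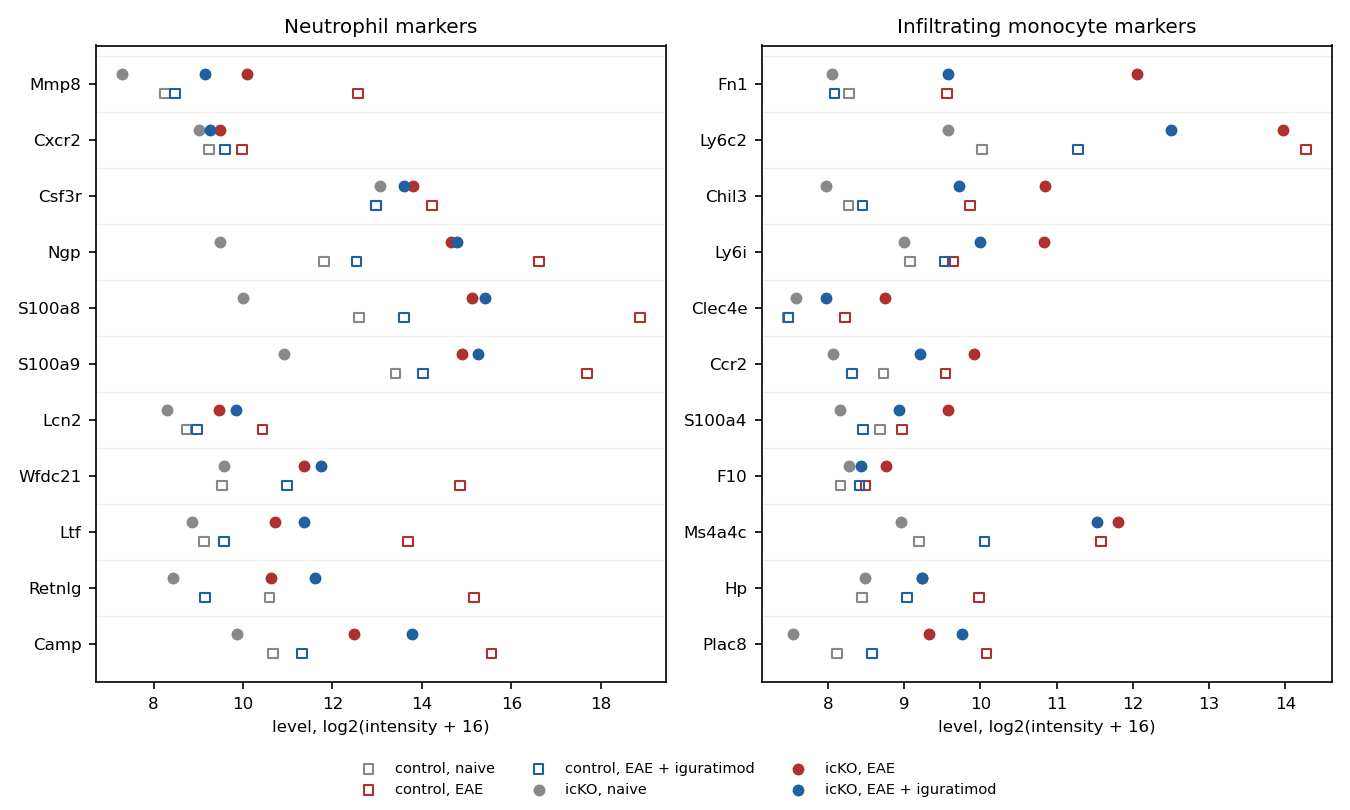
Levels, log2(intensity + 16), of the neutrophil and infiltrating monocyte markers considered, ordered by their icKO difference, on 6 arrays. Filled circles are icKO and open squares control, grey naive, red EAE and blue EAE with iguratimod. Most blue circles lie at or right of the red circles for neutrophil markers, and left of them for monocyte markers, as for Fn1 at 9.57 against 12.05.

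The other leukocyte lists held dim genes, and a member could pass the filter through the EAE array alone. Of 15 T cell markers on the array 7 passed, 6 of them lower, with a median of -0.37, which was -0.14 without the filter, and the receptor subunit gene Cd3e lay at 8.15 when naive, 9.09 in icKO EAE and 8.23 with iguratimod. Their summed intensity was 11.54 in icKO EAE and 11.15 with iguratimod. Cytotoxic and NK cell markers had a median of -0.53 over the 5 of 10 that passed and -0.12 without the filter, with granzyme B, Gzmb, at 8.44 and 7.66. Of the 6 dendritic cell markers that passed, 3 were higher and 3 lower. Of B cell and plasma cell markers 2 passed the filter, and of eosinophil and mast cell markers 2. No member of these lists was at an intensity of 0 on any array. Without the genes of the leukocyte lists the counts over all genes were 117 higher and 269 lower. Monocyte markers were lower on the same array as the leading lower genes, Arg1, Vim, Tgfbi, Anpep, Fgl2, Cxcr4 and Il1b among them. The lower chemokine and class II values given above were on that array too. The part of monocytes in any of these values was not tested.

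Whether the iguratimod difference itself differed between icKO and control was tested with limma over all 8 arrays, with the naive and p50 arrays sharing 1 genotype effect and 1 residual degree of freedom. Of 18260 genes, 0 were called at an adjusted p of 0.05 (0%), with a lowest adjusted p of 0.588, and 1529 had an unadjusted p below 0.05. The differences between genotypes given above, for the immediate early, chemokine and neutrophil genes too, are therefore values of single arrays side by side and are not shown to be particular to either genotype. A p above the threshold does not show that the genotypes responded alike.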

How the data were processed

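Gene expression in microglia was measured on 8 arrays, and 2 of them carry the comparison. Per the labels' protocols, TRIzol and a purification kit gave the RNA, and WT Pico reagents were used for amplification and biotin labelling. The authors deposited linear intensities, 65956 rows by 8 arrays, made with Affymetrix Expression Console per the submitters' processing notes. The summarisation and normalization are not given in the sources used here. Array maxima exceeded the 65535 of a 16-bit scanner, so the values are summarised, and 2.02% to 2.23% of rows on an array lay above it. No detection calls were used.

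Rows were named through the platform annotation, updated through RefSeq (GRCm38.p6): 31247 rows had 1 gene, 1503 several (left out) and 33206 none here, and 887 symbols were updated. The brightest probe set stood for each of the 367 genes with several. The scale was log2(intensity + 16), on which differences of dim genes come out too small, and nothing more was normalized. A gene was considered if it lay above the 50th percentile of named rows on at least 1 of the 2 arrays. Differences of 2-fold or more were counted without a test. The genotype difference of the iguratimod difference was fitted with limma 3.58.1 in R 4.3.3 (lmFit, eBayes, Benjamini-Hochberg adjustment) on 18260 genes above the filter on any array, and the script was tested on simulated data. Its residual is how far the genotype difference disagrees between the naive and p50 arrays, moderated over genes. The EAE and iguratimod arrays add nothing to it. A true change of the genotype effect between the naive and p50 states therefore counts as spread. The p-values do not measure spread among replicate arrays or among animals. Other steps ran in Python 3.11.15 with pandas 2.3.3 and numpy 2.4.6.

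The genes named were the 15 highest and 15 lowest whose brighter array lay above the 60th percentile of genes considered, with members of leukocyte lists apart. Predicted genes, pseudogenes, small RNAs, antigen receptor segments and chemosensory receptors were not named. From each of 50 lists came the members at least 2-fold different, at most 5 each way, or else the highest and lowest, and its defining genes. Other list members were named after their values were seen. The comparison, the lists and the rules were chosen with earlier results of these data known. Of the 738 genes in the lists, 658 were on the array and 495 were considered. Alternatives were the filter, normalization, probe set rule, pseudocount, fold threshold and limma prior. The level of the targeted gene is not reported here.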

Additional observations from a re-analysis of the deposited data

Results flagged for a closer look

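Genes are given here because their iguratimod difference was at least 2-fold one way in icKO and at least 2-fold the other way in control, with 1 array in each group. The values are the icKO difference minus the control difference on the log2 scale. Fos had -3.15 and the related gene Fosb -3.08. The chemokine gene Ccl3 had -2.81, and the signalling regulator gene Rgs1 had -3.24. In the other direction, the cathelicidin gene Camp had 5.53 and the ATP synthase subunit gene Atp5mpl had 3.01. The limma test of the genotype difference called 0 of 18260 genes, these included, where 0.588 was the lowest adjusted p and 1529 genes had an unadjusted p below 0.05. Over all kinds of genes, 14 were at least 2-fold lower in icKO and higher in control, and 9 the reverse, of which 4 and 2 were of the kinds named here.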

How the results depend on the processing

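The 118 higher and 272 lower genes became 78 higher under a filter at the 70th percentile, 547 and 1197 at a 1.5-fold threshold, 11 and 49 at a 3-fold threshold, and 9 and 59 over the kinds of genes named here, a choice made after seeing the data. Without a filter they were 147 and 306, after quantile normalization 118 and 208, with centred arrays 121 and 265, with averaged probe sets 114 and 268, and with a pseudocount of 1 or 64 they were 131 and 300 or 83 and 221. The limma test called 0 genes under each of 6 alternatives, with lowest adjusted p-values from 0.387 to 0.596 and 1014 to 2443 genes at an unadjusted p below 0.05. All 34 leading genes kept their sign under 5 alternatives. A changed pseudocount cannot turn the sign of a gene's difference, and averaging probe sets could not alter the 33 genes with 1. Centring moved all genes by the same small amount, so quantile normalization was the main check for genes. Of 43 list medians, 36 kept their sign under 5 alternatives. The medians of the p200, NF-kB, lysosome, lipid efflux, TGF-beta, heat shock and dendritic cell lists, all between -0.14 and 0.00, changed sign under at least 1. Quantile normalization moved the median of the brightest genes from -0.12 to -0.03. Leaving out an array was not run, since each group holds 1. No paired analysis was possible because each group holds 1 array and the labels give no replicate numbers. Differences of dim genes near the filter are limited by signal over background, which was not measured here.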

Other observations

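Some genes of lists described only in passing also lay apart on the icKO iguratimod array. Ch25h, which encodes the enzyme that makes an antiviral oxysterol, lay at 7.20 when naive, 8.49 in icKO EAE and 9.34 with iguratimod, against 7.85 and 7.37 in control. The costimulation and checkpoint list had a median of 0.13 over 10 genes, with Cd83, a maturation marker of antigen-presenting cells, at 9.01 and 9.67 and Havcr2, which encodes TIM-3, at 11.04 and 11.70. In control both were lower with iguratimod, with differences of -0.59 and -0.85. Odc1, the first enzyme of polyamine synthesis, which uses the ornithine that arginase makes, lay at 11.34 and 10.56 in icKO and at 10.54 and 10.93 in control. These genes were singled out after their values were seen.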
